A study of Mus musculus with 26 samples.

Results

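The nuclear-encoded subunits of the mitochondrial respiratory chain were followed in the mouse fibroblast line NIH3T3, which was derived from embryos and grows as an immortal culture, through heat, oxidative and osmotic stress. Members were taken by gene symbol: Nduf genes with the letters a, b, c, s or v for complex I, Sdha to Sdhd for complex II, Uqcr genes for complex III, Cox4 to Cox8 genes for complex IV and Atp5 genes for complex V. This rule found 96 of the 20430 gene symbols in the RNA tables, and 95 of them, all but Ndufa11b, were among the 19941 symbols of the footprint tables. Of the 96 symbols, 84 name subunits: 38 of complex I, 4 of complex II, 8 of complex III, 18 of complex IV and 16 of complex V. The other 12 were 8 complex I assembly factors (Ndufaf1 to Ndufaf8), 2 copies of subunit genes (Ndufa11b and Ndufb4c) and 2 symbols that name no subunit (Atp5s and Atp5sl), and they were counted apart.

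The respiratory chain is built in the inner mitochondrial membrane. Complexes I and II pass electrons from NADH and succinate to ubiquinone, complex III passes them on to cytochrome c and complex IV to oxygen, and complex V, the ATP synthase, uses the resulting proton gradient to make ATP. Most subunits are made from nuclear genes on cytosolic ribosomes and imported, while a small set of core subunits of complexes I, III, IV and V is encoded in mitochondrial DNA and translated inside the organelle, so the assembly of every complex except II depends on both genomes.

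PolyA-selected RNA was measured by RNA sequencing in 8 groups, and ribosome footprints, the mRNA fragments covered by ribosomes, were measured in 5 groups, with 2 replicates in each group. The heat groups were cells kept at 44 °C for 2 h, cells kept at 42 °C for 8 h and their own heat control. The chemical groups were H2O2 for 2 h or 7 h, KCl for 2 h or 7 h, and a control shared by H2O2 and KCl; concentrations are not given in the labels. Footprints were used for the chemical groups. The series was made to study transcription that runs on into neighbouring genes under stress, and the respiratory chain is not its stated subject. The labels do not say that replicates were separate cultures, so the p-values measure the spread between these libraries, which may be technical.

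RNA libraries held 24441877 to 45244430 expected counts and footprint libraries 1460751 to 5168537, and the ends of the footprint range were replicates 1 and 2 of H2O2 for 2 h. All 10 fibroblast markers examined were above 10 TPM on average. Epcam, Cdh1, Krt8 (epithelial), Ptprc, Cd3e, Itgam (immune), Pecam1, Cdh5 (endothelial) and Myh6, Myh7, Ckm, Des (muscle) were below 1 TPM. Not all markers of other cell types were this low. Krt18 and Krt19 (epithelial) and Cd68 (immune) were above 10 TPM on average. Kdr (endothelial) and Acta1 (muscle) lay between 1 and 10 TPM. The tests covered 89 of the 96 members in each RNA experiment and 87 in footprints. The members not tested in either RNA experiment were Cox4i2, Cox6a2, Cox7b2, Cox8b, Cox8c and Ndufa11b, to which Ndufa4l2 was added in heat and Cox6b2 in the chemical experiment. In bulk samples, fewer cells of a type and less RNA per cell cannot be told apart.

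In the H2O2/KCl control the 84 subunit mRNAs together took 2.28% and 2.30% of all TPM, the deposited unit that corrects counts for transcript length and scales each library to a fixed total. Complex V took the largest share, 0.855% and 0.847%, followed by complex I with 0.662% and 0.676%, complex IV with 0.516% and 0.528%, complex III with 0.178% and 0.181% and complex II with 0.0678% and 0.0658%. In footprints the order of the complexes was the same, with 0.817% and 0.888% for complex V and 0.607% and 0.627% for complex I.

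By RNA level per length, Atp5b, the catalytic beta subunit of the ATP synthase, came first at 1744 ± 35.5 TPM (SD, n = 2), with 1769 and 1719 TPM in the 2 controls. Cox4i1, the widely expressed isoform of the nuclear-encoded subunit 4 of cytochrome c oxidase, followed at 1095 ± 14.7 TPM, and Atp5g3, 1 of 3 genes for the membrane c-ring of the ATP synthase, at 837 ± 13.6 TPM. These 3 differed by more than the spread of the replicates and held the top places in footprints too, where Atp5g3 (1090 TPM) came before Cox4i1 (934 TPM). Complex I subunits were spread from Ndufa4 at 499 TPM, a protein now placed in complex IV although its symbol is a complex I symbol, down to Ndufs1 at 79.6, Ndufv3 at 69.5, Ndufs4 at 64.0 and Ndufa11 at 24.6 TPM. Ndufs1 carries iron-sulfur clusters of the electron path, and Ndufs4 is an accessory subunit needed for a stable NADH-oxidizing arm.

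The tissue-restricted isoforms of complex IV were low or silent in these fibroblasts. Cox7a1, the heart and muscle isoform of subunit 7a, averaged 3.70 TPM in the H2O2/KCl control. Cox4i2, Cox6a2, Cox6b2, Cox7b2, Cox8b and Cox8c were each below 1 TPM there, and Cox8b was listed at 0 in all 16 RNA libraries. The widely expressed partner isoforms Cox4i1, Cox6a1, Cox6b1, Cox7a2, Cox7b and Cox8a were all among the tested genes.

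**Figure D1:**
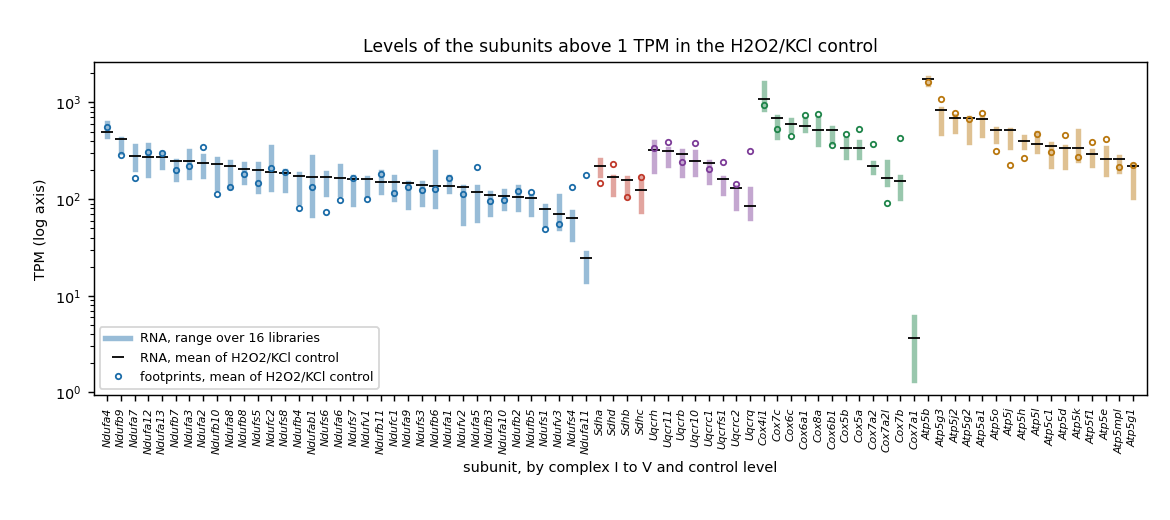
RNA level (TPM, log axis) of subunits above 1 TPM in the H2O2/KCl control, ordered within complexes I to V; black bars are the mean of the 2 controls, coloured bars span all 16 RNA libraries and circles are control footprint means. Atp5b stands highest at 1744 TPM, and Ndufa11 (24.6 TPM) and Cox7a1 (3.70 TPM) stand below the other subunits of their complexes.

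After 2 h at 44 °C RNA of most subunits of complexes I, II and V was lower than in the heat control. Of the 89 tested members 61 fell and 3 rose, with a median log2 fold change of -0.28, while over all 12747 genes tested 35.7% fell, 35.4% rose (71.0% changed in either direction) and the median was -0.00. Within the complexes, 32 of 37 tested complex I subunits fell (median -0.35), 3 of 4 in complex II (-0.42), 4 of 8 in complex III (-0.09), 6 of 13 in complex IV (-0.14) and 13 of 16 in complex V (-0.37). All 7 nuclear-encoded core subunits of complex I, those that carry the flavin and iron-sulfur clusters, fell, as did 17 of 20 accessory subunits of the membrane arm.

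The member with the largest fall at 44 °C was Ndufa11, an accessory subunit of the complex I membrane arm. Its RNA was 28.9 and 32.0 CPM (counts scaled to library size with the trimmed mean of M values, TMM, and not corrected for length) in the heat controls and 15.7 and 16.6 CPM at 44 °C, a log2 fold change of -0.92 ± 0.07 (SE; adjusted p = 4.09e-08). Both heated libraries lay well below both controls. Cox7b, a small membrane subunit of complex IV, went from 69.3 and 70.5 CPM to 40.2 and 41.7 CPM (log2 fold change -0.77 ± 0.05, adjusted p = 1.67e-08). In the same complex Cox4i1 (0.01 ± 0.04) and Cox5a (-0.01 ± 0.05) were not called, and the heated libraries of Cox5a, at 82.1 and 83.2 CPM, lay between its controls of 85.4 and 81.2 CPM.

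The members of complexes II, III and V with the largest changes at 44 °C were Sdhb, Uqcrc1 and Atp5c1. Uqcrc1, a core protein of complex III, went from 172 and 171 CPM to 109.9 and 106 CPM (log2 fold change -0.67 ± 0.04, adjusted p = 1.02e-08). Sdhb, the iron-sulfur subunit of succinate dehydrogenase, went from 70.7 and 72.3 CPM to 47.0 and 47.8 CPM (-0.59 ± 0.05, adjusted p = 5.10e-08). Atp5c1, the gamma subunit that forms the rotating central stalk of the ATP synthase, went from 166 and 166 CPM to 108 and 106 CPM (-0.63 ± 0.04, adjusted p = 1.69e-08). In each of these 3 genes, picked for their change, the heated libraries lay below both controls by far more than the replicates differed.

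Atp5b, although the most abundant member, was not called at 44 °C, with 1281 and 1294 CPM in the controls and 1249 and 1260 CPM after heat. The 3 members that rose were Ndufaf1, an assembly factor of complex I (log2 fold change 0.49), Ndufa6, an accessory subunit of its peripheral arm (0.18), and Uqcrfs1, the Rieske iron-sulfur protein of complex III (0.14). Without replicate 2 of the 44 °C group the 3 rises became 1, and the rise of Uqcrfs1 was also lost without replicate 1 of the heat control.

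Heat at 42 °C for 8 h gave another picture, and its direction depends on the scale. On the count scale 31 of 89 members rose and 9 fell (median log2 fold change 0.10; 31.7% of all tested genes rose and 31.9% fell, 63.6% together, median -0.01), whereas on the log2(TPM + 1) scale 9 rose and 39 fell (among all genes 1945 and 6287, with the median at -0.16). On the count scale the rises were spread over complex I (11 of 37), III (3 of 8), IV (3 of 13) and V (9 of 16), and the log2(TPM + 1) scale turned the sign of subunits such as Atp5a1, Cox7a2 and Uqcrc2. Rises that kept their call and direction on both scales included Cox5a, a nuclear subunit of the cytochrome c oxidase matrix face, Atp5f1, subunit b of the peripheral stalk of the ATP synthase, and Ndufab1, the mitochondrial acyl carrier protein that is also a complex I subunit.

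Cox5a was at 85.4 and 81.2 CPM in the heat controls and at 114 and 108 CPM at 42 °C, a log2 fold change of 0.42 ± 0.05 (adjusted p = 2.29e-06). Atp5f1 was at 189 and 188 CPM in the controls and at 242 and 229.9 CPM at 42 °C (0.33 ± 0.04, adjusted p = 9.32e-06). In both genes the 2 heated libraries lay above both controls. Complex II went the other way in its membrane anchors: Sdhc was at 78.8 and 82.7 CPM in the controls and at 65.3 and 70.0 CPM at 42 °C (-0.26 ± 0.05, adjusted p = 0.000399). Ndufv3, a small accessory subunit next to the NADH-binding site, fell from 32.3 and 32.7 CPM to 23.999 and 24.5 CPM (-0.42 ± 0.06, adjusted p = 3.74e-05). Uqcr10, a small subunit of complex III, was at 43.6 and 47.5 CPM in the controls and at 57.3 and 53.8 CPM at 42 °C, where its call (0.29 ± 0.06, adjusted p = 0.000890) was lost on the log2(TPM + 1) scale (adjusted p = 0.114).

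The heat groups were also compared with each other, since they share a control. Members were higher at 42 °C for 8 h than at 44 °C for 2 h in 71 of 89 cases and lower in 4 (median 0.39; 37.9% and 37.2% of all tested genes, 75.1% together, median -0.00), and on the log2(TPM + 1) scale 46 were higher and 14 lower, with the median of all genes at -0.20. All 16 complex V subunits and 33 of 37 complex I subunits were higher on the count scale. On the count scale 22 members had calls of opposite sign against the control in the 2 heat groups, as had 19.1% of all tested genes. Atp5c1 was 1 of these, at -0.63 in the first and 0.29 in the second, and the difference was 0.92 ± 0.04 (adjusted p = 2.58e-10). Such a count was not taken on the log2(TPM + 1) scale, where 9 members rose at 42 °C. Atp5a1, Cox7a2 and Uqcrc2 of the 22 changed sign at 42 °C there. Temperature and duration changed together between these groups and cannot be told apart.

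**Figure D2:**
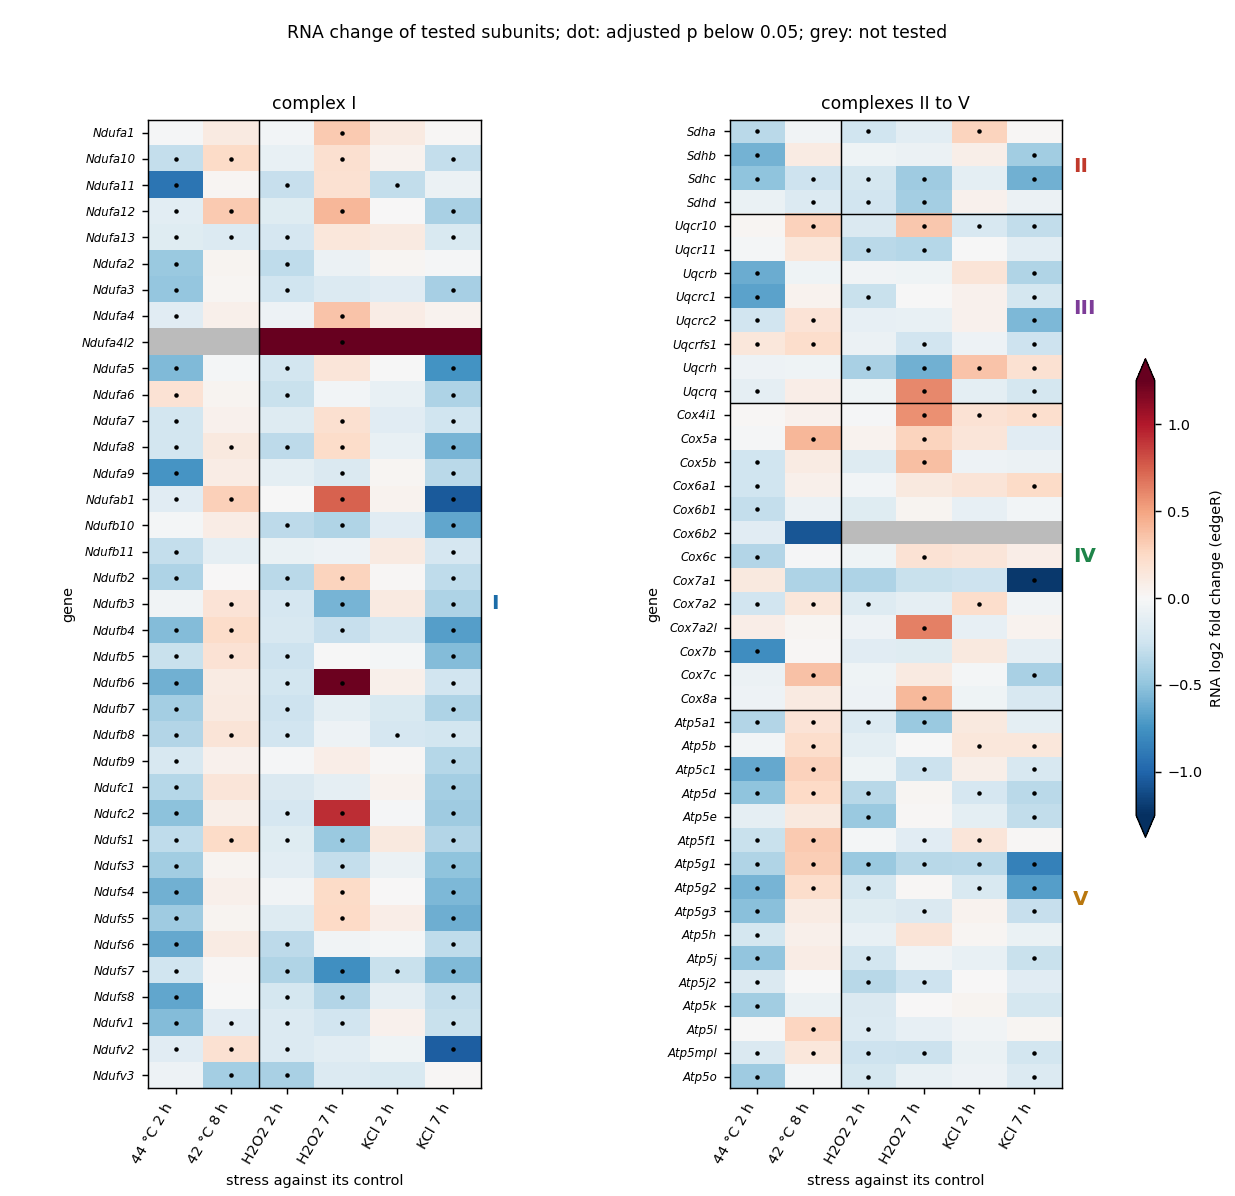
RNA log2 fold change of tested subunits (rows, complex I left and complexes II to V right) in each stress against its own control (columns); dots mark an adjusted p below 0.05, grey cells were not tested and the colour scale saturates at its ends. Complex I is mostly blue at 44 °C and at KCl 7 h, Ndufb6, Ndufc2 and Ndufab1 stand out in red at H2O2 7 h, and the faint red of the 42 °C column turns for many subunits on the log2(TPM + 1) scale.

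After 2 h of H2O2 the members that changed fell, with 1 exception. Of 89 members 45 fell and 1 rose, the assembly factor Ndufaf4 (median -0.18; 26.5% of all 13256 tested genes fell and 27.3% rose, 53.9% together, median -0.00). The falls were small and were spread over complex I (23 of 38, median -0.21), complex II (3 of 4), complex III (3 of 8) and complex V (10 of 16), while in complex IV 1 of 12 fell. This was Cox7a2 (-0.16, adjusted p = 0.0388), whose call was lost with DESeq2 (adjusted p = 0.075), with only the groups compared (0.050459), without replicate 1 or 2 of the control (0.086 and 0.13) and without replicate 2 of H2O2 2 h (0.29). Without replicate 2 of the control 25 members fell, and without replicate 2 of H2O2 21 fell, so this count rests on the individual libraries.

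Among the members with the largest falls at 2 h of H2O2 was Atp5g1, a gene for the c-ring, which went from 70.7 and 72.8 CPM in the controls to 49.9 and 54.1 CPM (log2 fold change -0.46 ± 0.08, adjusted p = 0.000385). Uqcrh, the acidic hinge protein of complex III, went from 68.4 and 64.9 CPM to 52.4 and 48.1 CPM (-0.41 ± 0.07, adjusted p = 0.000169). Ndufv3 fell from 21.3 and 20.6 CPM to 16.7 and 15.02 CPM (-0.40 ± 0.08, adjusted p = 0.000910). Treated and control libraries did not overlap in these 3 genes, which were picked for their change. Sdha, the flavoprotein that oxidizes succinate, fell by 0.25 on the log2 scale (SE 0.06, adjusted p = 0.00253). In complex IV Cox5b, a zinc-binding subunit, was at -0.16 ± 0.07 and did not pass the test (adjusted p = 0.0729).

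At 7 h of H2O2 the subunits no longer moved one way. Of 89 members 24 rose and 26 fell (median -0.06). Of all tested genes 39.4% rose and 31.1% fell (70.5% together, median 0.08). On the log2(TPM + 1) scale 20 members rose and 39 fell, against 4482 rises and 4539 falls among all 13256 tested genes. Complex IV held 6 rises and no fall among 12, with a median of 0.15, and complex V held 7 falls and no rise among 16 (-0.10); complex II held 2 falls among 4. Within complex I, 6 of the 7 core subunits fell and none rose (median -0.37), while 8 of 20 membrane arm accessory subunits rose and 3 fell (0.11). Without replicate 1 of H2O2 7 h the number of members that rose was 13.

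Ndufb6, Ndufc2 and Ndufab1 rose most among the well-expressed subunits at 7 h of H2O2. Ndufb6, an accessory subunit of the membrane arm, was at 34.8 and 36.9 CPM in the controls, at 29.5 and 31.6 CPM at 2 h and at 82.6 and 84.7 CPM at 7 h (log2 fold change at 7 h 1.22 ± 0.07, adjusted p = 6.06e-10). Ndufc2, another membrane arm subunit, was at 49.2 and 53.4 CPM, then 45.04 and 43.9 CPM, then 96.5 and 97.997 CPM (0.92 at 7 h). Ndufab1 was at 43.7 and 44.8 CPM in the controls, at 44.0 and 44.2 CPM at 2 h and at 73.6 and 74.3 CPM at 7 h (0.74 at 7 h, adjusted p = 3.25e-07). In all 3 genes both 7 h libraries lay above every control and 2 h library, and Ndufb6 and Ndufc2 had fallen at 2 h before they rose.

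The promoter windows of these 3 genes, chosen after their values were seen, are shown because both their RNA and their footprints rose at 7 h of H2O2. Each runs 5′ to 3′ on the gene's own strand, from 250 bases before to 50 bases after the RefSeq transcript start on build GRCm38.p6, and capitals mark matches to any of 3 cores that were searched on either strand: GCATGCG of NRF1, CCGGAAG of the ETS factors such as GABP, and AAGATGG of YY1.
Ndufb6 chr4:40279372-40279671, minus strand: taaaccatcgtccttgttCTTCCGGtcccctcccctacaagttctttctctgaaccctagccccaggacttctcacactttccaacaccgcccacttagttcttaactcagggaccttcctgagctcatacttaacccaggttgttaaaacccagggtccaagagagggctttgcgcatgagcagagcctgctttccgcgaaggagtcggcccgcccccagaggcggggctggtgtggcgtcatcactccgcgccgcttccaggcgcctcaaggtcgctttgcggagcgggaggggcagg
Ndufc2 chr7:97399753-97400052, plus strand: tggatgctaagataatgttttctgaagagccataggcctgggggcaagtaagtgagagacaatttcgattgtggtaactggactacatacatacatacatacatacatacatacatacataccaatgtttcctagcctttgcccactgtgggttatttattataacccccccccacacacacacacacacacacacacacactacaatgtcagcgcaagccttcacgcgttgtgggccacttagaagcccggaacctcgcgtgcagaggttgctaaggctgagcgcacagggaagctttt
Ndufab1 chr7:122101799-122102098, minus strand: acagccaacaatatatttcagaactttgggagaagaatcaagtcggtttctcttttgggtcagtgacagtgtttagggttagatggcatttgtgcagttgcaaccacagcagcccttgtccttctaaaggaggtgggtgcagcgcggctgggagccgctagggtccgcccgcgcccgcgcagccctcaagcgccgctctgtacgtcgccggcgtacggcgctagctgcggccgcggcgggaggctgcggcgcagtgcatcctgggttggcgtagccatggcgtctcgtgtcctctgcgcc
Ndufb6 held 1 match, an ETS core on the antisense strand that starts at base -232 from the transcript start. Ndufc2 and Ndufab1 held none of the 3 cores in this window.

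In complex IV the rises at 7 h of H2O2 included Cox7a2l, a factor that joins complexes III and IV into supercomplexes, which went from 78.0 and 73.7 CPM to 118 and 117 CPM (0.63 ± 0.06, adjusted p = 1.71e-07). Cox4i1 went from 291 and 295 CPM to 449.9 and 423 CPM (0.57, adjusted p = 2.97e-06), with no overlap of the groups. Uqcrq, a small subunit of complex III beside its heme-bearing core, rose from 54.5 and 57.2 CPM to 89.6 and 79.8 CPM (0.60 ± 0.08, adjusted p = 1.41e-05). Cox5b, Cox8a and Ndufa4 rose by 0.37, 0.41 and 0.36 on the same scale, although the call of Cox8a was lost without replicate 1 of H2O2 7 h (0.27, adjusted p = 0.064).

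The falls at 7 h of H2O2 included core subunits of complex I, the membrane anchors of complex II and the alpha subunit of complex V. Atp5a1, the alpha subunit that forms the catalytic head with Atp5b, went from 748 and 724 CPM to 532 and 536 CPM (-0.46 ± 0.05, adjusted p = 3.25e-06), while Atp5b was at 1469 and 1412 CPM in the controls and at 1451 and 1424 CPM at 7 h. The alpha subunit thus fell without a called change of the beta subunit. Ndufs7, an iron-sulfur core subunit of complex I, went from 48.1 and 51.8 CPM to 30.0 and 28.8 CPM (-0.76). Sdhc, a membrane anchor of complex II that holds its heme, went from 62.3 and 61.0 CPM to 44.9 and 45.6 CPM (-0.45 ± 0.06, adjusted p = 1.97e-05), and the other anchor, Sdhd, fell by 0.43 on the log2 scale. Uqcrh fell further than at 2 h, to 44.8 and 43.1 CPM (-0.60, adjusted p = 2.26e-06).

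Tested directly, 38 of 89 members were higher at 7 h than at 2 h of H2O2 and 12 were lower (37.3% and 36.1% of all tested genes, 73.4% together). On the log2(TPM + 1) scale 31 members were higher and 18 lower, against 4408 and 5229 of all 13256 tested genes. In complex I 22 of 38 were higher and 4 lower; none of the 7 core subunits was higher and 3 were lower. For 6 members (Ndufb6, Ndufc2, Ndufb2, Ndufa8, Ndufaf2 and Atp5sl) the calls at 2 h and 7 h had opposite signs, a fall first and a rise later; opposite calls were made for 10.9% of all tested genes, so the count of members is not above the background. In Ndufb6 the difference between 7 h and 2 h was 1.45 ± 0.07 (adjusted p = 1.40e-10).

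Ndufa4l2, a paralog of Ndufa4 known as a target of the hypoxia factor HIF-1, was nearly silent except at 7 h of H2O2. It passed the filter on low counts only through that group, so its call is a description and supports nothing. It remains in the counts of members higher at 7 h of H2O2, in RNA and footprints, against the control and against 2 h. The 2 libraries of H2O2 7 h held 146 counts together and the 2 controls 1 count, a ratio, scaled to library size, of 210 with an exact 95% interval of 37.1 to 8358 that covers counting error only. Footprint libraries held 40 counts against 6 (ratio 7.72, 3.25 to 22.3). Even at 7 h of H2O2 its level was 5.95 and 5.89 TPM, against 607 and 603 TPM for Ndufa4 in the same libraries.

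After 2 h of KCl few members changed. Of 89 members 7 rose and 11 fell (median -0.00). Of all tested genes 27.2% rose and 27.0% fell (54.2% together, median 0.00). On the log2(TPM + 1) scale 3 members rose and 32 fell, against 2567 rises and 4540 falls among all 13256 tested genes (median -0.07). Uqcrh rose, from 68.4 and 64.9 CPM to 80.9 and 89.2 CPM (0.35 ± 0.07, adjusted p = 0.000491), in contrast with its falls under H2O2. Sdha rose from 282 and 277 CPM to 331 and 346 CPM (0.28 ± 0.06, adjusted p = 0.00110), and Cox7a2, the widely expressed isoform of subunit 7a, from 66.0 and 67.0 CPM to 77.7 and 77.3 CPM (0.22 ± 0.06, adjusted p = 0.00604). The call of Cox7a2 was lost on the log2(TPM + 1) scale (0.11, adjusted p = 0.086).

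Falls at 2 h of KCl included Atp5g1, from 70.7 and 72.8 CPM to 53.1 and 60.2 CPM (-0.34 ± 0.09, adjusted p = 0.00374), and Ndufa11, from 28.8 and 29.7 CPM to 26.0 and 21.3 CPM (-0.31 ± 0.09, adjusted p = 0.00855). Neither gene's groups overlapped, and both genes were picked for their change. The call of Ndufa11 was lost without replicate 2 of KCl 2 h (-0.17, adjusted p = 0.14). Counts of members also moved with single libraries: the 7 rises became 4 without replicate 1 of the control, and the 11 falls became 7, 6 or 5 without replicate 1 of the control, replicate 2 of the control or replicate 2 of KCl 2 h.

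After 7 h of KCl complex I RNA was lower as a whole. Of 89 members 57 fell and 5 rose (median -0.29; 31.6% of all tested genes fell and 37.2% rose, 68.8% together, median 0.04). Complex I accounted for 32 of the falls, out of 38 subunits, with none that rose and a median of -0.37; its share of all TPM was 0.49993% and 0.474% against 0.662% and 0.676% in the control. All 7 of its core subunits fell (median -0.43). Falls in the other complexes numbered 2 of 4 in II, 6 of 8 in III, 2 of 12 in IV and 9 of 16 in V, and the medians were -0.25, -0.24, -0.06 and -0.21 in that order. In complex IV as many subunits rose, Cox4i1 and Cox6a1, as fell, Cox7c and Cox7a1. Cox7a1 was at very low levels, and DESeq2 did not call its fall. The 5 rises became 3, 2, 1 and 3 without replicates 1 and 2 of the control and of KCl 7 h in turn, and on the log2(TPM + 1) scale 1 member rose and each of the 4 subunit rises lost its call.

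Among well-expressed subunits, Ndufab1 and Ndufv2 had the lowest log2 fold changes at 7 h of KCl. Ndufab1, which had risen at 7 h of H2O2, went from 43.7 and 44.8 CPM to 22.9 and 19.5 CPM (-1.05 ± 0.08, adjusted p = 3.21e-08). Ndufv2, an iron-sulfur subunit of the NADH-oxidizing end of complex I, went from 87.6 and 88.9 CPM to 46.3 and 40.1 CPM (-1.03). Its neighbour Ndufv1, the subunit that binds NADH and the flavin, went from 115 and 111 CPM to 93.9 and 92.8 CPM. In all 3 genes both treated libraries lay below both controls, and the log2 fold change of Ndufv1 was -0.28 ± 0.06. Cox7a1 was lower still, at -1.21 ± 0.46, but from 0.496 and 0.419 CPM to 0.214 and 0.177 CPM, and DESeq2 did not call it (adjusted p = 0.14).

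The 3 c-ring genes, which encode the same mature c subunit, all fell at 7 h of KCl but not equally. Atp5g1 went from 70.7 and 72.8 CPM to 43.3 and 36.6 CPM (-0.84 ± 0.09, adjusted p = 1.02e-06), Atp5g2 from 175 and 173 CPM to 111 and 104 CPM (-0.69), and Atp5g3 from 238 and 241 CPM to 204 and 188 CPM. All libraries of KCl 7 h lay below the controls in the 3 genes. Atp5b, in contrast, was at 1614 and 1556 CPM after 7 h of KCl, above both controls (1469 and 1412 CPM), a rise of 0.14 that lost its call without either control or either KCl 7 h library.

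Complexes II, III and IV each had a subunit with a clear fall at 7 h of KCl. Sdhc fell to 41.8 and 39.8 CPM (-0.60 ± 0.06, adjusted p = 1.50e-06), and Uqcrc2, a core protein of complex III, went from 112 and 106 CPM to 76.7 and 70.4 CPM (-0.56 ± 0.06, adjusted p = 1.63e-06). Cox7c, a small subunit of complex IV, went from 108 and 115 CPM to 92.4 and 75.04 CPM (-0.41 ± 0.08, adjusted p = 0.000603). Compared with 2 h, 52 of 89 members were lower at 7 h of KCl and 4 higher (33.7% and 35.1% of all tested genes, 68.8% together), and 29 of 38 complex I subunits were among the lower ones. The 4 higher became 1 without replicate 2 of KCl 2 h or replicate 1 of KCl 7 h.

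The windows of 3 further members, also chosen after their values were seen, are shown because they hold the searched cores and come from complexes I and V. Ndufa11 had the largest fall at 44 °C, Atp5g2 fell at 44 °C and at 7 h of KCl, and Atp5j, a subunit of the peripheral stalk that fell in the same groups, held all 3 cores. Orientation, build and capitals are as above.
Ndufa11 chr17:56717512-56717811, plus strand: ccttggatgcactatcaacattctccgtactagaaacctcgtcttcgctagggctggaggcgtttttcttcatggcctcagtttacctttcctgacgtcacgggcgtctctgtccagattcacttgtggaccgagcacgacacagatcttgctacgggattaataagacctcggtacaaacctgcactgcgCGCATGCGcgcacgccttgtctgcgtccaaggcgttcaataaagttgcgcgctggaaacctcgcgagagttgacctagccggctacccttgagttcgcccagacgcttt
Atp5g2 chr15:102670998-102671297, minus strand: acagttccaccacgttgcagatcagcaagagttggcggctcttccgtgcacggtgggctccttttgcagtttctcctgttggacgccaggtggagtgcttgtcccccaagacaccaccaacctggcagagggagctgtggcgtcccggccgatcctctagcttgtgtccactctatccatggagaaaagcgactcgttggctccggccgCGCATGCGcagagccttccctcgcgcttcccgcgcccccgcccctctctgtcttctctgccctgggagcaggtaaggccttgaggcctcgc
Atp5j chr16:84834927-84835226, minus strand: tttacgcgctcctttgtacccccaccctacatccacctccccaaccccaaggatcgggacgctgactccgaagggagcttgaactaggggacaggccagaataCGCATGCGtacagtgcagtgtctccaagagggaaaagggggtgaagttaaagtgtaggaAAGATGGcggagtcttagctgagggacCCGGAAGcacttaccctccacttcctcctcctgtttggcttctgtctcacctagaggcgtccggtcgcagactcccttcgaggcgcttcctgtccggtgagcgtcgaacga
In these 3 windows the NRF1 core reads on both strands within an 8-base palindrome, CGCATGCG, so that the matches on both strands overlap.

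RefSeq promoter windows were at hand for 74 of the 96 members, 67 of them subunits. The NRF1 core was in the window of 11 of the 67 subunits (16.4%), against 4.01% of all 27025 genes in the table and 4.96% of its 17492 protein-coding genes. For the ETS core the shares were 23.9% of subunits, 9.93% of all genes and 12.9% of protein-coding genes, and for the YY1 core 14.9%, 7.28% and 7.18%. The TATA box TATAAA on the sense strand was in 4.48% of subunit windows and in 9.77% of all. Complex V held the NRF1 core in 4 of 13 windows and the ETS core in 5 of 13, and complex I held them in 3 and 4 of 33, while the YY1 core was in 7 of 33 complex I windows. A match to such a short core is a description of the window and not a bound site, and these shares were not tested.

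**Figure D3:**
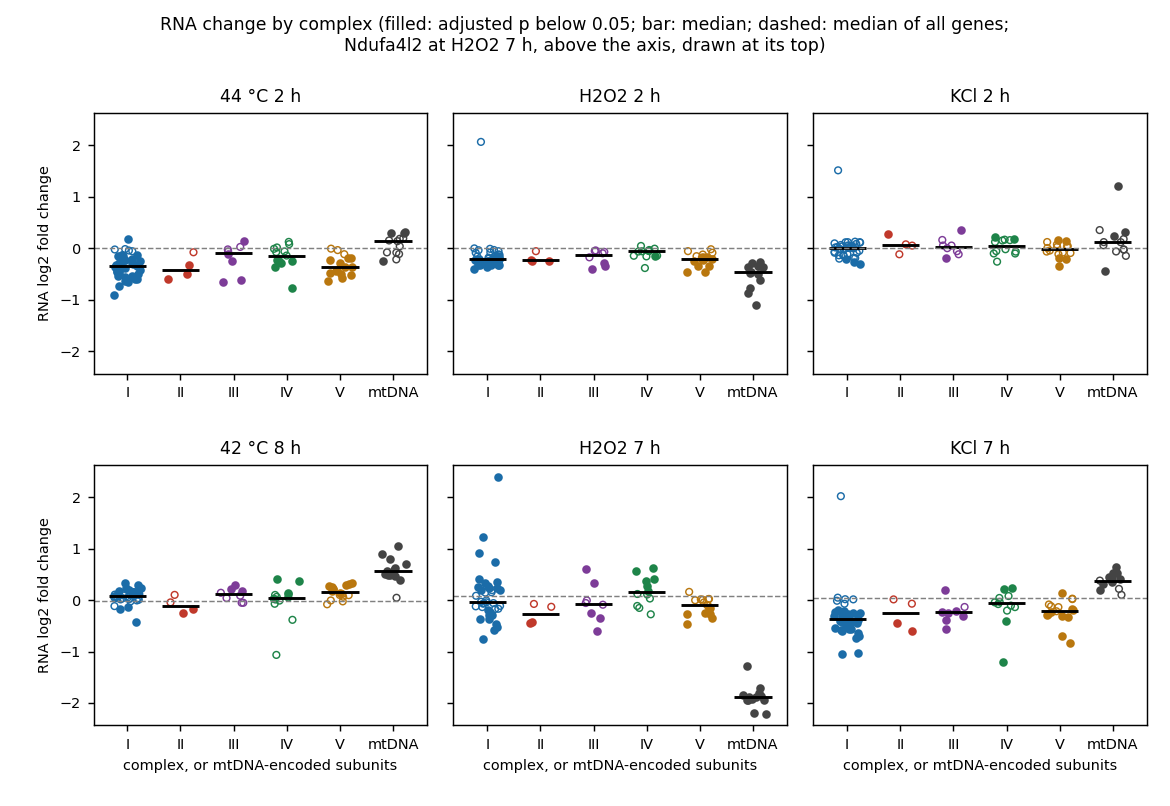
RNA log2 fold change (vertical axis) of each subunit of complexes I to V and of the 13 subunits encoded in mitochondrial DNA (horizontal axis), one panel per stress; filled points passed an adjusted p of 0.05, bars are medians and the dashed line is the median of all genes. At H2O2 7 h the mitochondrially encoded subunits lie near -1.88 while the nuclear-encoded ones scatter around 0; in the 42 °C panel the nuclear-encoded rises turn for many genes on the log2(TPM + 1) scale.

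The subunits encoded in mitochondrial DNA were read beside the nuclear-encoded ones, and the difference between the lists was not tested. At 7 h of H2O2 all 13 fell, with a median of -1.88, and their share of RNA TPM went from 7.57% and 6.49% to 1.73% and 1.97%; at 2 h 12 of 13 had fallen (-0.46). Under KCl for 7 h 10 of 13 rose and none fell (0.38), while complex I of the nuclear genome fell. At 44 °C 3 of 13 rose and 1 fell (0.14). At 42 °C 12 of 13 rose (0.56). Of all tested genes 35.4% rose and 35.7% fell at 44 °C, and 31.7% rose at 42 °C. Falls were called in 26.5% at 2 h and 31.1% at 7 h of H2O2. After 7 h of KCl 37.2% of all tested genes rose and 31.6% fell. In footprints, 12 of 13 fell at 7 h of H2O2 (median -2.26), against 10.6% of all tested genes.

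Other genes of the same pathway were counted beside the subunits, and their difference from all genes was not tested. Of all tested genes 35.7% fell and 35.4% rose at 44 °C, and 31.9% and 31.7% at 42 °C. Under H2O2 26.5% fell and 27.3% rose at 2 h, and 31.1% and 39.4% at 7 h. After 7 h of KCl 31.6% fell and 37.2% rose. The counts of assembly factors at 44 °C and at 7 h of H2O2 were near these shares. Of 38 assembly factors outside the Nduf family, 12 fell and 13 rose at 44 °C, 16 fell and 5 rose at 2 h of H2O2, and the longer KCl treatment had 25 falls and 7 rises (median -0.46); Coa3, a complex IV assembly factor, was at -1.74 there and Lyrm7, a chaperone of the Rieske protein, at -2.83. At 7 h of H2O2 14 such factors rose and 12 fell, and Lyrm7 was among those that rose (1.76), as was Sdhaf1, an assembly factor of complex II (1.86). Of 13 enzyme genes of the citrate cycle 10 fell and none rose at 44 °C, 7 rose and 2 fell at 42 °C, and, after 7 h, 8 fell and 2 rose under H2O2 and 6 fell and 1 rose under KCl. Among 12 transcriptional regulators of mitochondrial genes 7 rose and 1 fell at 44 °C, and at 7 h 7 rose and 2 fell under H2O2 and 7 rose and 4 fell under KCl; Esrra, an orphan nuclear receptor, reached 2.33 at 7 h of H2O2, and the coactivator gene Ppargc1b was at -2.01 after 2 h of H2O2 and at -2.08 after 7 h of KCl.

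Cytochrome c1 and cytochrome c, which the symbol rule does not include, were read beside complex III. Cyc1, the catalytic heme subunit of complex III, fell at 44 °C (-0.54) and, after 7 h, under H2O2 (-0.35) and KCl (-0.44). Cycs, the mobile carrier between complexes III and IV, was at 0.08 and not called at 44 °C, rose at 7 h of H2O2 (0.43) and fell at 7 h of KCl (-0.27).

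The Ndufaf assembly factors of complex I differed among themselves. Ndufaf1 rose at 44 °C, from 19.2 and 18.04 CPM to 26.2 and 26.3 CPM, and fell at 42 °C, to 14.04 and 14.2 CPM; Ndufaf5, an enzyme that modifies a core subunit, went from 11.6 and 11.5 CPM to 6.74 and 7.27 CPM at 44 °C and to 16.4 and 14.4 CPM at 42 °C. Under KCl Ndufaf1 fell from 19.9 and 19.3 CPM to 11.7 and 10.96 CPM at 2 h and reached 25.01 and 22.6 CPM at 7 h, a difference of 1.08 ± 0.09 between the times (adjusted p = 7.95e-08). It was the 1 member of 89 with opposite calls at the 2 times of KCl, against 11.4% of all tested genes. Ndufaf3 had the lowest log2 fold change of all members at 7 h of KCl, with 5.46 and 5.58 CPM in the controls and 1.64 and 1.32 CPM after treatment (-1.88). These 3 genes were chosen after their values were seen.

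Ribosomal protein genes, the other large set of housekeeping genes examined, were read beside the members in some of the comparisons. After 7 h of H2O2 82 of 85 tested cytosolic ribosomal protein genes rose and none fell, against 24 rises and 26 falls of 89 respiratory chain members. At 2 h of KCl 44 of 78 mitochondrial ribosomal protein genes fell and 3 rose, against 11 and 7 of 89. Under KCl for 7 h the mitochondrial ribosomal protein genes had 43 falls and 12 rises of 78, and the respiratory chain members 57 and 5 of 89. Falls outnumbered rises in both of these lists at 7 h of KCl. Of all tested genes 39.4% rose and 31.1% fell at 7 h of H2O2. Under KCl 27.2% rose and 27.0% fell at 2 h, and 37.2% and 31.6% at 7 h. The difference between the gene lists was not tested.

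Footprint libraries were shallower than RNA libraries, and fewer members were called. At 2 h of H2O2 1 of 87 members rose and none fell (median 0.24; 1.14% and 0.768% of all 10545 tested genes, 1.91% together). The riser was Ndufa7, an accessory subunit of the peripheral arm of complex I, at 0.94 ± 0.20 (adjusted p = 0.0307), and its call was lost without either control library or without replicate 1 of H2O2 2 h. At an unadjusted p below 0.05, 21 members were higher and 3 lower at 2 h, and the share of all genes at that threshold was not taken. DESeq2 called 6 members higher, against 157 higher and 127 lower of all 10545 tested genes. Cox6a1, at 152 and 245 CPM in the controls and 484 and 353 CPM at 2 h, had a log2 fold change of 1.07 ± 0.29 that did not pass (adjusted p = 0.0835). The largest fall among well-expressed subunits, that of Atp5mpl in complex V, was -1.09 ± 0.38 and did not pass either (adjusted p = 0.167).

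At 7 h of H2O2 7 members rose and 4 fell in footprints (17.2% and 10.6% of all tested genes, 27.7% together; median -0.01). The genes with the largest RNA rises rose here too. Ndufb6 footprints went from 39.1 and 43.1 CPM to 103 and 142 CPM (1.57 ± 0.24, adjusted p = 0.000372), Ndufc2 from 62.9 and 59.1 CPM to 143 and 157 CPM (1.30 ± 0.18, adjusted p = 0.00018) and Ndufab1 from 54.3 and 54.1 CPM to 84.8 and 118 CPM (0.90 ± 0.23, adjusted p = 0.00989). Control and treated libraries were apart in all 3. Cox4i1 rose from 428 and 578 CPM to 769 and 947 CPM (0.77), and Cox6c, a small complex IV subunit, by 0.76. Ndufa7 and Ndufa4l2 made up the 7, and the call of Ndufa4l2 is a description only.

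The 4 members whose footprints fell at 7 h of H2O2 included Uqcrh, from 69.7 and 62.7 CPM to 35.6 and 38.6 CPM (-0.84 ± 0.19, adjusted p = 0.00608) and Atp5c1 (-0.70 ± 0.20). RNA of Uqcrh had fallen as well. These calls rest on few libraries: the 7 rises became 2, 4 and 2 without replicate 1 of the control, replicate 2 of the control and replicate 2 of H2O2 7 h, and the 4 falls became 2 and 0 without replicate 2 of the control and replicate 1 of H2O2 7 h. Ndufb6 kept its call in all 11 alternatives, while the call of Ndufab1 was lost without either control and without replicate 2 of H2O2 7 h.

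**Figure D4:**
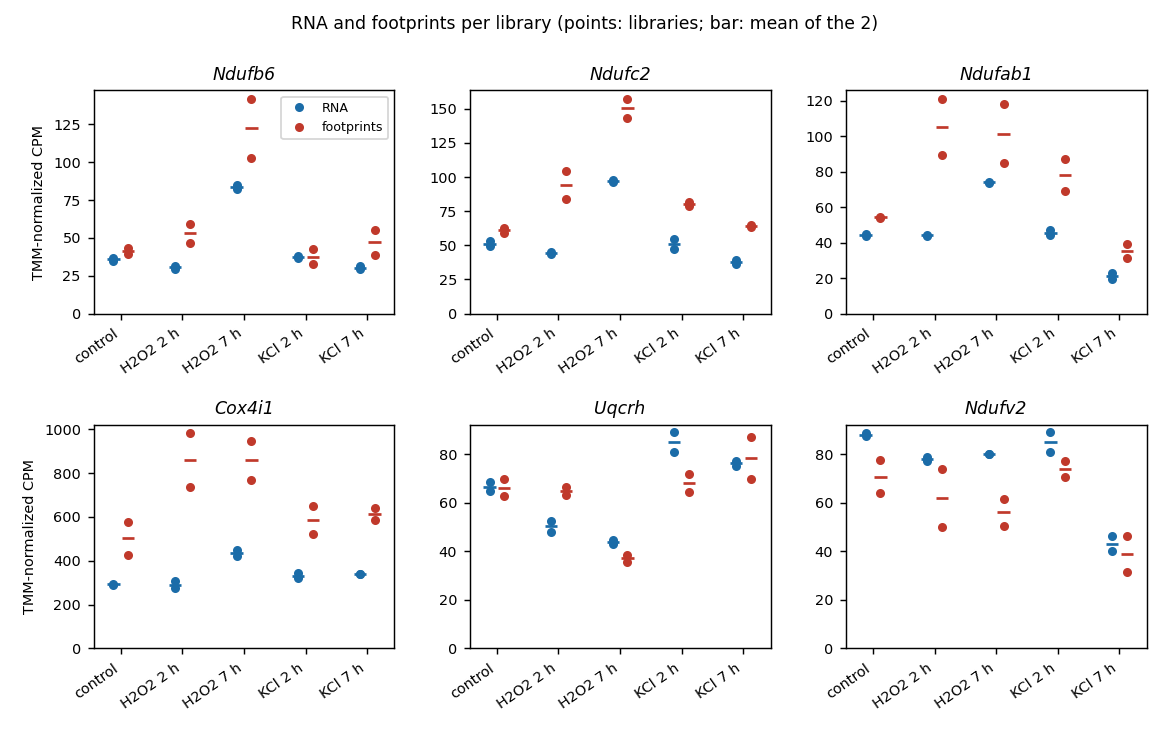
RNA (blue) and footprints (red) of 6 members in TMM-normalized CPM, one point per library and a bar at the mean of the 2 replicates. Ndufb6, Ndufc2 and Ndufab1 are highest in RNA at H2O2 7 h, Uqcrh is lowest there in both measures, and Ndufab1 and Ndufv2 are lowest in RNA at KCl 7 h.

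Under KCl no member was called in footprints at 2 h (median 0.13). Of all tested genes 1.79% rose and 5.06% fell with edgeR, 6.86% together. At an unadjusted p below 0.05, 4 members were higher and none lower, and the share of all genes at that threshold was not taken. DESeq2 also called 0 members. At 7 h 4 members fell and none rose (9.83% and 10.5% of all tested genes, 20.4% together; median -0.11). Ndufv2 went from 77.5 and 64.0 CPM to 31.6 and 46.5 CPM (-0.85 ± 0.25, adjusted p = 0.0278), and Ndufaf3 (-1.84 ± 0.51) and Ndufaf7 (-0.86 ± 0.24) fell too. Atp5g2 went from 173 and 344 CPM to 75.1 and 104 CPM (-1.52 ± 0.34, adjusted p = 0.00792); its controls differed from each other by more than the lower control did from either treated library. Without replicate 2 of the control the value was -0.94 (adjusted p = 0.087), and without replicate 1 of KCl 7 h -1.31 (adjusted p = 0.088). The 4 falls became 2, 0, 0 and 2 without replicate 1 of the control, replicate 2 of the control, replicate 1 of KCl 7 h and replicate 2 of KCl 7 h.

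Footprints of the 2 times were also compared directly. Under H2O2 3 members were higher and 11 lower at 7 h than at 2 h (18.7% and 11.1% of all tested genes, 29.8% together), and on the log2(TPM + 1) scale 3 and 4, with the median of all genes at 0.19 there. The higher ones were Ndufb6, Ndufc2 and Ndufa4l2. The call of Ndufa4l2, which passed the filter only through 7 h of H2O2, is a description only. The lower ones included Sdhc and Sdhd, Cox6a1 and Cox6b1, Atp5a1 and Atp5g1; without replicate 1 of H2O2 2 h, the shallowest library, 3 were lower, and without replicate 1 or 2 of H2O2 7 h 2 and 4. The 3 higher became 1 without replicate 2 of H2O2 2 h or of H2O2 7 h. Under KCl 10 members were lower at 7 h and none higher (8.43% and 12.1% of all tested genes, 20.6% together). Ndufaf3 at -2.29 and Ndufb4, a membrane arm subunit, at -1.91 led them. The value of Ndufb4 is uncertain, because RSEM divides shared reads between it and its near-identical copy Ndufb4c. Unscaled footprint counts of Ndufb4 went from 103 and 188 in the early KCl libraries to 24 and 60 in the late ones. Those of Ndufb4c, which were higher, went from 276 and 261 to 181 and 199. The sum of both genes was not tested. The count of 10 was smaller in each fit that left out 1 library.

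Translational efficiency, the change of footprints beyond that of RNA, was tested as an interaction in 1 model over both kinds of library. At 2 h of H2O2 16 of 87 members rose and none fell (median 0.38), against 3.98% and 7.46% of all 10480 tested genes (11.4% together, median -0.01). The 16 came from all 5 complexes: 9 from complex I, 2 from complex II, 1 from complex III, 3 from complex IV and 1 from complex V. RNA of 40 of the 78 tested subunits had fallen at this time while member footprints had a median of 0.24, and the efficiency takes in both.

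Ndufs7, a core subunit of complex I, led with 1.18 ± 0.25 (adjusted p = 0.00671): its RNA was at 48.1 and 51.8 CPM in the controls and 40.8 and 36.3 CPM at 2 h of H2O2, and its footprints at 81.0 and 111 CPM and then 219 and 134 CPM. Both treated footprint libraries lay above both controls, and they differed widely from each other. Ndufa7 (1.07 ± 0.19), Cox6a1 (1.07 ± 0.32), Cox6b1 (0.89 ± 0.28), Ndufab1 (0.88 ± 0.23), Atp5d, the delta subunit of the ATP synthase (0.85 ± 0.23), and Ndufc2 (0.76 ± 0.17) were among the others, with Sdha (0.51 ± 0.15), Sdhc (0.71 ± 0.19), Uqcrc1 (0.70 ± 0.21) and Cox4i1 (0.74 ± 0.23). Ndufs7 kept its call in all 13 alternatives. The calls of Sdha, Uqcrc1, Cox4i1 and Cox6a1 were lost in 6 of 13, those of Sdhc and Cox6b1 in 7 and that of Ndufab1 in 5. Atp5mpl, a small membrane subunit of the ATP synthase, had the lowest value apart from the nearly silent Ndufa4l2, -0.87 ± 0.34, and was not called (adjusted p = 0.106).

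The count of 16 moved with single libraries. In each fit that left out 1 library, the number of all genes called higher moved in the same direction. It became 4 and 3 without RNA control replicates 1 and 2, 5 and 3 without RNA replicates 1 and 2 of H2O2 2 h, 10 and 12 without footprint replicates 1 and 2 of the control, 10 without footprint replicate 1 of H2O2 2 h and 25 without its replicate 2. The 2 footprint libraries of this group held 1460751 and 5168537 counts, and the part of this difference in the result was not tested.

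At 7 h of H2O2 no member was higher in efficiency and 1 was lower (4.69% and 4.57% of all tested genes, 9.27% together; median 0.03). It was Cox7a2l, whose RNA rose while its footprints stayed at 24.8 and 19.3 CPM against 25.7 and 23.9 CPM in the controls, a change in efficiency of -0.80 ± 0.22 (adjusted p = 0.0280). Cox7a2l also had the lowest ratio of footprints to RNA among tested subunits in the control, 0.327 of mean CPM. Its call was lost in 7 of the 8 fits that left out 1 library and with limma voom (adjusted p = 0.060). Cytosolic ribosomal protein genes in the same libraries had 63 of 83 lower in efficiency and none higher (median -1.09), while the median of all genes was 0.06; the difference between the lists was not tested. Between 7 h and 2 h 7 members were lower and none higher (2.27% and 4.93% of all tested genes, 7.20% together). They became 1 and 0 without RNA replicates 1 and 2 of H2O2 2 h, 0 and 1 without those of H2O2 7 h, 1 and 17 without footprint replicates 1 and 2 of H2O2 2 h and 1 without footprint replicate 1 of H2O2 7 h.

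Under KCl 2 members were higher in efficiency at 2 h and none lower (3.58% and 9.18% of all tested genes, 12.8% together; median 0.15): Ndufa7 at 0.79 ± 0.20 and Atp5sl at 1.22 ± 0.36. They became 1 without RNA replicate 1 of the control or of KCl 2 h, 0 without RNA replicate 2 of KCl 2 h, 0 and 4 without footprint replicates 1 and 2 of the control, and 4 and 0 without those of KCl 2 h. At 7 h edgeR called 0 of 87 in either direction (1.69% and 3.88% of all tested genes, 5.57% together), while 12 were higher and 1 lower at an unadjusted p below 0.05, and limma voom also called 0; without footprint replicate 1 of the control 1 was higher and 1 lower. For 7 h against 2 h of KCl edgeR called 0 as well (3.88% higher and 2.96% lower of all tested genes, 6.84% together). At an unadjusted p below 0.05, 4 members were higher and 3 lower there. The share of all genes at that threshold was not taken for 7 h of KCl or for this comparison.

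**Figure D5:**
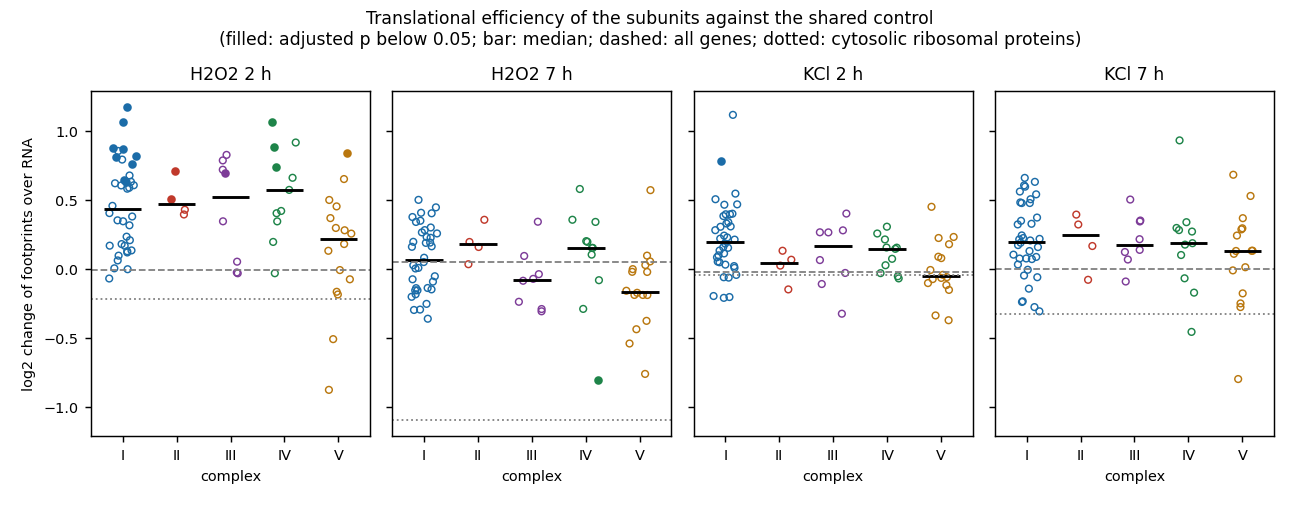
Change of translational efficiency (log2 change of footprints beyond RNA, vertical axis) of each subunit of complexes I to V against the shared control, one panel per stress; filled points passed an adjusted p of 0.05, bars are medians, the dashed line is the median of all genes and the dotted line that of cytosolic ribosomal proteins; Ndufa4l2 is not drawn. The 16 filled points of H2O2 2 h all lie above 0, and at H2O2 7 h the subunits lie near the dashed line while the dotted line is at -1.09.

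Transcription past gene ends, the subject of the series, was read for the members from the authors' calls on pairs of neighbouring genes. Of 6399 pairs, 62 had a member upstream and 37 a member downstream. A DoG call, which marks a transcript that continues downstream of the upstream gene, was present for 17.7% to 33.9% of the pairs with a member upstream, depending on the library, and for 19.4% to 35.7% of all pairs. Ndufa10 and Ndufab1 had a DoG in all 16 RNA libraries, as had 277 of the 6399 pairs.

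Read-in calls, which mark such transcription reaching into the next gene, were rarer. They occurred in 4 of the 99 pairs that hold a member, against 5.45% of all pairs. Atp5d upstream of Midn was called in 6 libraries, Atp5b upstream of Baz2a in 1, Naa40 upstream of Cox8a in 3 and Tmem30a upstream of Cox7a2 in 2. For Cox8a the deposited read-in estimate, a ratio, was 0.00031 and 0.00039 in the controls and 0.0235 and 0.0195 at 2 h of KCl, and for Cox7a2 it was 0.00047 and 0.00147 and then 0.0236 and 0.0236. Cox7a2 was called higher in RNA at 2 h of KCl and Cox8a was not, and the part of read-in in either value was not tested.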

How the data were processed

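RNA (16 libraries in 8 groups) and ribosome footprints (10 libraries in 5 groups) of NIH3T3 cells were analysed from the deposited tables, with 2 replicates per group. The authors' files give expected counts and TPM per gene, and STAR, RSEM, Bowtie and build mm10 are named per the submitters' processing notes, without versions. The deposited pair tables give the authors' read-in estimates as a ratio and their DoG and read-in calls.

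Expected counts were rounded to whole numbers and tested with edgeR 4.0.16 in R 4.3.3 (TMM normalization, quasi-likelihood test) on all genes that passed a filter on low counts, with heat and chemical groups fitted separately. P-values were adjusted by Benjamini-Hochberg over all genes tested, with a threshold of 0.05. Translational efficiency was the interaction of kind of library and stress in 1 model. The 12 footprint columns that match no sample were not used. RSEM divides reads shared by near-identical copies, so the values of Ndufa11 with Ndufa11b and of Ndufb4 with Ndufb4c are uncertain. The number of replicates limits the precision of every fold change.

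Alternatives were DESeq2 1.42.0, RLE size factors, no filter, log2(TPM + 1) with limma 3.58.1, limma voom for efficiency, only the groups compared, summed synonym rows, a replicate block and leaving out each library. The scripts were tested on simulated data. The members and lists were chosen with earlier results of these data known. Genes named with values were, per complex and RNA comparison, the subunit with the largest change at an average log2 CPM of at least 3. A list of core and paralogous subunits, members with DoG or read-in calls and at most 2 genes per pathway list were also named. For footprints and efficiency the rule took the largest rise and fall in each comparison, and only part of these are given. Outside this rule Ndufa6, Ndufa7, Ndufc2, Ndufv2, Ndufs4, Cox6c, Atp5d, Atp5j, Atp5sl and the Ndufaf genes were chosen after their values were seen. Where a gene was picked for its change, libraries that do not overlap follow in part from that choice. Such a separation is a description only. One member enters the counts and medians but is not reported here by name. Promoter windows come from RefSeq on GRCm38.p6.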

Additional observations from a re-analysis of the deposited data

Results flagged for a closer look

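The heat groups differed from each other in 75 of the 89 tested members in RNA, where 75.1% of all tested genes differed. In addition 22 members had calls of opposite sign against the shared control, as had 19.1% of all tested genes. On the log2(TPM + 1) scale 9 members rose at 42 °C, and Atp5a1, Cox7a2 and Uqcrc2 of the 22 changed sign at 42 °C. Under H2O2 50 of 89 members differed in RNA between 7 h and 2 h, against 73.4% of all tested genes, and 6 were called in opposite directions, a fall at 2 h and a rise at 7 h, against 10.9%. Under KCl 56 of 89 differed in RNA between the times, against 68.8%, and 1 was called in opposite directions, against 11.4%: Ndufaf1, which was at -0.80 at 2 h and at 0.28 at 7 h, a difference of 1.08. In footprints 14 of 87 members differed between the 2 times of H2O2, against 29.8% of all tested genes, and 10 between those of KCl, against 20.6%. Translational efficiency differed between the times of H2O2 in 7 of 87 members, against 7.20%. Outside the heat comparison these counts are near or below the shares of all genes, and no difference from all genes was tested. Each is a direct test of one stress group against the other with edgeR at an adjusted p of 0.05. With 2 libraries per group, no group was large enough to look for single outlying samples.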

How the results depend on the processing

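On the log2(TPM + 1) scale, which was used for RNA and footprints, 7 members rose at 44 °C, 9 rose and 39 fell at 42 °C, 46 were higher and 14 lower at 42 °C than at 44 °C, 3 rose and 32 fell at 2 h of KCl and 1 rose at 7 h of KCl; in footprints 0 rose at 2 h of H2O2 and 4 were lower at 7 h than at 2 h. It reversed Atp5a1 (-0.020), Cox7a2 (-0.046) and Uqcrc2 (-0.019) at 42 °C, and Cox6b1 (-0.026), Cox8a (-0.078), Ndufa4 (-0.043) and Sdhc (-0.00063) between the heat groups. The cause was not tested. Among all tested genes this scale gave 1945 rises and 6287 falls at 42 °C, and 2567 rises and 4540 falls at 2 h of KCl.

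DESeq2 gave 1 member higher in RNA at 7 h than at 2 h of KCl, 6 higher in footprints at 2 h of H2O2 and 2 lower at 7 h of KCl. RLE size factors gave 2 higher in RNA and 1 lower in efficiency for 7 h against 2 h of KCl. Without a filter 2 were higher in RNA for that comparison and 4 in footprints at 2 h of H2O2. Summed synonym rows gave 2 higher in RNA at 2 h of H2O2. With only the groups compared 4 rose in RNA at 2 h of KCl, 1 was higher in RNA at 7 h than at 2 h of KCl and 0 rose in footprints at 2 h of H2O2. With limma voom 0 rose in efficiency at 2 h of KCl and 2 were lower at 7 h than at 2 h of H2O2.

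Leaving out 1 library gave these ranges in RNA: 1 to 3 higher at 44 °C, 22 to 31 higher and 6 to 11 lower at 42 °C, 3 to 6 lower at 42 °C than at 44 °C, 21 to 45 lower at 2 h of H2O2, 13 to 22 higher and 20 to 30 lower at 7 h of H2O2, 4 to 9 higher and 5 to 14 lower at 2 h of KCl, 1 to 3 higher and 43 to 57 lower at 7 h of KCl, and, for 7 h against 2 h, 30 to 37 higher and 8 to 11 lower under H2O2 and 1 to 4 higher under KCl. In footprints the ranges were 0 to 1 higher at 2 h of H2O2, 2 to 7 higher and 0 to 4 lower at 7 h of H2O2, 0 to 2 lower at 7 h of KCl, 1 to 3 higher and 2 to 9 lower between the times of H2O2 and 1 to 7 lower between those of KCl. In efficiency they were 3 to 25 higher and 0 to 1 lower at 2 h of H2O2, 0 to 2 lower at 7 h of H2O2, 0 to 4 higher at 2 h of KCl, 0 to 1 in either direction at 7 h of KCl, 0 to 1 higher and 0 to 17 lower between the times of H2O2 and 0 to 1 lower between those of KCl.

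Replicate numbers are shared by the groups, and the labels do not say that they pair samples. Deviations of same-numbered libraries correlated at 0.09 to 0.22 in heat RNA, -0.20 to 0.39 in chemical RNA and -0.52 to 0.53 in footprints. With a replicate block 61 members fell and 4 rose at 44 °C, 26 rose and 27 fell at 7 h of H2O2 and 58 fell at 7 h of KCl in RNA, and 8 rose and 5 fell in footprints at 7 h of H2O2. The shallowest footprint library held 1460751 counts, and 2 replicates per group limit every comparison.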
